A study of Ictidomys tridecemlineatus with 15 samples.

Results

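Photoreceptor precursors of the embryonic retina of the 13-lined ground squirrel (13LGS, Ictidomys tridecemlineatus) were compared with early-stage neurogenic progenitors of the same single-cell RNA libraries. The 2 classes were taken from the cell types that the authors deposited, in the whole retina at embryonic days 21, 24 and 26 (E21, E24 and E26). They held 825 precursors and 1278 neurogenic progenitors of 14108 cells in 6 libraries, and the whole series held 53394 cells from 15 samples. The embryos came from timed-pregnant captive dams, carried no named allele and received no named treatment. The labels give 2 samples per embryonic day and do not say whether these came from separate animals, so that p-values measure the spread between these libraries.

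A primary retinal progenitor renews itself, and some of its daughters enter a neurogenic state, in which they still divide but are about to form neurons. Photoreceptor precursors are among the cells born at that point: they have left the cell cycle and go on to form cones or rods. Most mammals used in the laboratory have rod-rich retinas, whereas the 13LGS is active by day and most of its photoreceptors are cones. The comparison therefore asks which transcripts separate the newborn photoreceptor from the dividing state next to it.

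The 30265 deposited gene names are not paired with the 34181 rows of the count matrix. Genes are therefore given by their row number, counted from 1, with no gene name or sequence, and the class labels could not be checked against marker genes. The classes were set beside lists of rows that led each cell type in other libraries of the series. These lists rest on the same authors' annotation, so that they are no independent check of the labels. The authors named the types from clusters of these same cells, so that a difference between the classes is in part what the naming used. The counts of differing rows below describe the annotated classes.

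Precursors were scarce at E21 and common from E24 on. They made up 0.978% and 1.40% of the cells of the 2 E21 libraries (18 and 22 cells), 9.69% and 3.65% at E24 (268 and 69 cells), and 6.42% and 9.22% at E26 (250 and 198 cells). Neurogenic progenitors moved less, between 5.77% and 10.9% of a library. The number of precursors for each neurogenic progenitor was 0.0938 and 0.139 at E21 (0.117 ± 0.0322, mean ± SD, n = 2), 1.15 and 0.473 at E24 (0.811 ± 0.479) and 0.588 and 1.60 at E26 (1.09 ± 0.713). Every library of E24 and E26 was above both libraries of E21, while the libraries of E24 and E26 overlapped. With 2 libraries per day no test was made. A library of E18, which is outside the comparison, held 484 neurogenic progenitors and fewer than 50 annotated precursors. The paper reports photoreceptor precursors from E18 on.

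**Figure D1:**
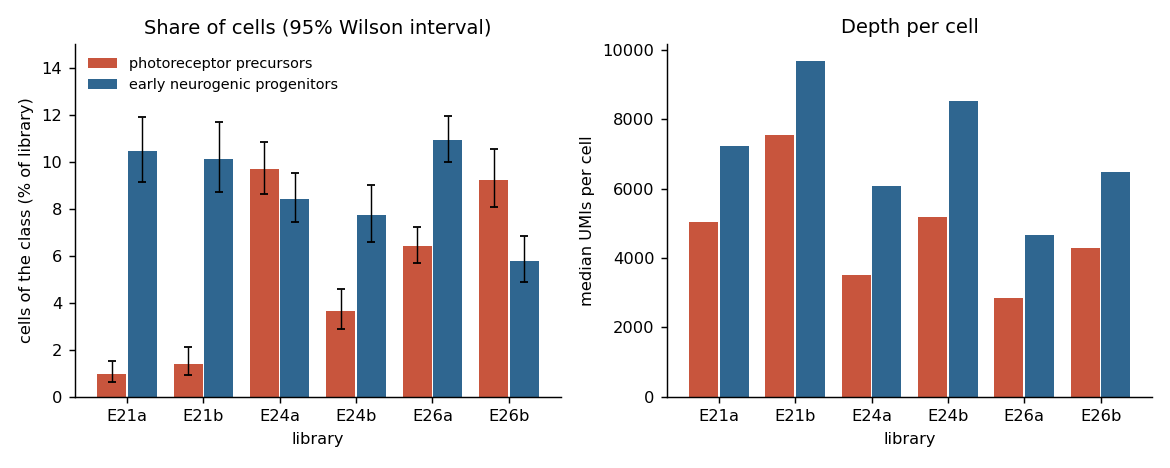
Share of each class in its library in percent (left, bars with 95% Wilson intervals, counting error only) and median UMIs per cell (right) in the 6 libraries, with precursors in red and early neurogenic progenitors in blue. Precursors make up 0.978% and 1.40% at E21 and 3.65% to 9.69% later, and their median UMI count lies below that of the progenitors in every library.

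A precursor held less RNA than a neurogenic progenitor of its own library, as counted in unique molecular identifiers (UMIs), each of which marks 1 captured mRNA molecule. Median UMIs per cell were 5027.5 and 7546 in precursors at E21, 3511.5 and 5172 at E24, and 2837.5 and 4289.5 at E26. In the progenitors they were 7233.5 and 9684, then 6074 and 8529, then 4656 and 6478.5. The precursor median was lower in 6 of 6 libraries, by a log2 ratio of -0.62 ± 0.16 (SD, n = 6), which is a 1.53-fold higher median in the progenitors. Flipping the signs of the 6 log2 ratios in every combination (exact permutation test, two-sided) gave p = 0.0312, the smallest p that 6 libraries allow.

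At equal depth no difference in the number of detected rows was shown. After each cell was thinned to 2000 UMIs, which left out 65 precursors and 18 progenitors, the difference in the median number of rows per cell between precursors and progenitors was -69, -47.5, -18.5, -1.5, 34.5 and -29.5 from E21a to E26b. The mean difference was -21.9 ± 36.2 rows (SD, n = 6; p = 0.219 by the same exact permutation test). It was -33.2 rows without E26a, where all 5 libraries left were negative and p = 0.0625 is the smallest the exact permutation test allows, and -12.5 rows without E21a (p = 0.438).

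Summed over a library, precursors held 101995 and 170654 UMIs at E21 and 455683 to 1165708 UMIs later, against 1211584 to 4064987 UMIs in the progenitors. The E21 libraries thus carried the fewest counts on the precursor side. Progenitors of the library E26a stood apart: 75 of their 425 cells had more than 2 times the class's median UMIs and held 60.9% of its UMIs, against 12.9% to 46.5% in the other 5 libraries, and the largest cell held 295040 UMIs. No doublets were removed here, and results were also computed without the 85 precursors and 180 progenitors above that limit. The libraries shared 0 to 8 cell barcodes per pair.

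Precursors and neurogenic progenitors differed across much of the transcriptome. Of 9254 rows with enough counts, 3559 differed at a Benjamini-Hochberg adjusted p below 0.05 in edgeR's quasi-likelihood test with the library as a block (38.5%). Of these, 1702 were higher in precursors (18.4%) and 1857 were lower (20.1%). A change of at least 2-fold was reached by 605 of the rows that rose (6.54%) and 742 of those that fell (8.02%), and at least 8-fold by 71 and 58. The median log2 difference over all tested rows was 0.01.

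The direction was the same in 6 of 6 libraries at 1038 of the 1702 higher rows (61.0%) and 1382 of the 1857 lower rows (74.4%), against 2763 of all 9254 tested rows (29.9%). The rows were called on these same libraries, so that part of this agreement comes with the choice of rows. The 6 precursor values lay wholly above the 6 progenitor values at 524 of the higher rows (30.8%) and wholly below at 708 of the lower rows (38.1%), against 1251 of all tested rows in either direction (13.5%). When each library was left out in turn, the rows called in the other 5 had the same sign in the sixth at 81.2% and 79.5% for the E21 libraries, 96.1% and 93.1% for E24, and 92.4% and 96.0% for E26. Over all tested rows the same share was 65.3% to 77.9%.

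**Figure D2:**
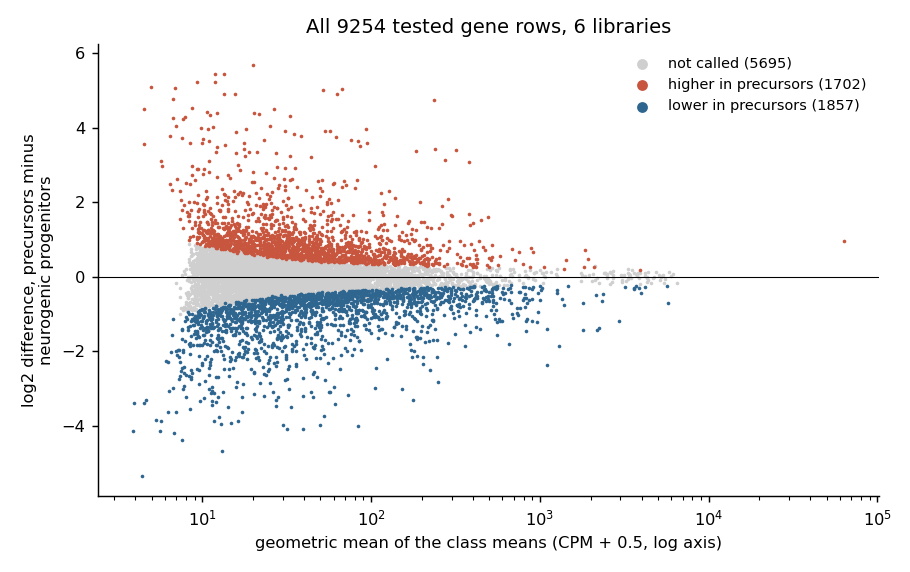
Each point is 1 of the 9254 tested rows, with the geometric mean of its class means (CPM + 0.5, log axis) against its log2 difference between precursors and neurogenic progenitors over 6 libraries. The 1702 higher rows (red) and the 1857 lower rows (blue) spread to similar sizes, and the single point at the far right is the most abundant row, which was higher in precursors.

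The most abundant row of both classes, singled out after its values were seen, was higher in precursors. It took 7.97%, 6.76%, 8.08%, 9.39%, 9.27% and 9.99% of the precursor UMIs from E21a to E26b. In the neurogenic progenitors it took 3.26%, 3.78%, 4.89%, 4.18%, 4.66% and 5.28%. The ranges did not overlap, and the log2 difference was 0.97 (SE 0.07, edgeR quasi-likelihood test, Benjamini-Hochberg adjusted p = 1.11e-11). Its level was no mark of photoreceptors, since horizontal cells of the same libraries gave it 10.3% to 12.8% of their UMIs and ganglion cells 6.21% to 7.91%. The other 1701 higher rows together took 16.3% ± 1.11 of the precursor UMIs and 9.30% ± 0.607 of the progenitor UMIs (SD, n = 6).

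The largest rises among called rows with at least 50 UMIs per 1e6 UMIs of the class (CPM) and no overlap were at 2 rows. Both had few or no UMIs in the progenitors. CPM of single rows in these 2 classes are given after trimmed-mean scaling. Row 12760 was at 75.3, 50.8, 105, 144, 227 and 209 CPM in precursors from E21a to E26b. In the progenitors it was at 0, 0, 1.86, 0.616, 6.21 and 5.88 CPM, where the 2 values of 0 rest on no UMI at all. Every precursor value lay above every progenitor value, which the choice of the row required. The precursor levels of E24 and E26 were above those of E21, which rest on 8 and 9 UMIs from 3 cells in each library. A change of the class difference with age was not called for this row (edgeR quasi-likelihood test, adjusted p = 0.183). The log2 difference was 5.69 (SE 0.26, n = 6 libraries, edgeR quasi-likelihood test, Benjamini-Hochberg adjusted p = 2.48e-16).

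The same row set precursors apart from other neurons too. A UMI of row 12760 was found in 37.3% of the precursors (median depth 3668 UMIs) and in 1.80% of the neurogenic progenitors (median 6512.5 UMIs). It was found in 1.64% of ganglion cells, a type at 10906 UMIs, and in 0.527% of horizontal cells, at 4470.5 UMIs. In cells thinned to 2000 UMIs the shares were 26.2% of precursors, 0.0794% of progenitors and 0.241% of ganglion cells. Its 33 UMIs in the progenitors came mostly from their largest cells: without cells above 2 times the median, 3 UMIs were left in 1098 progenitors, against 462 UMIs in 740 precursors, and the fitted log2 difference rose to 7.89. The part of doublets in this was not tested.

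Row 3044 behaved alike at a lower level. Its precursor values were 47.0, 11.3, 68.5, 126, 87.6 and 100.5 CPM, and its progenitor values 0.531, 0, 0.62, 0.616, 3.39 and 3.36 CPM. The groups did not overlap, which the choice of the row required, and the E21b precursor value rests on 2 UMIs. The log2 difference was 5.44 (SE 0.29, edgeR quasi-likelihood test, Benjamini-Hochberg adjusted p = 7.09e-15), and 6.09 without E26a. Of the precursors 22.8% held a UMI of it, against 1.17% of the neurogenic progenitors.

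After birth the levels of these rows in photoreceptors differed, in libraries that the comparison did not use. Row 3044 was at 95.9 to 126 CPM in cones of P12 to P21, and at 127 and 195 CPM in the rods of P17 and P21, which rest on 10 and 32 UMIs. Row 12760 was at 90.3, 151 and 98.8 CPM in cones at P12 and P17, but at 4.77 CPM in the P21 cones, from 19 UMIs. In rods it was at 12.7 CPM at P17, from 1 UMI, and had 0 UMIs at P21. At P21, therefore, the cones kept the one row and had little of the other. With 1 library at P21 this difference was not tested.

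Row 92 and row 15526 had the largest falls among called rows with at least 50 CPM in the higher class and no overlap between the classes, and both were higher still in primary progenitors. Row 92 itself was at 145, 176, 185, 136, 117 and 216 CPM in neurogenic progenitors from E21a to E26b. In precursors it was at 0, 5.65, 13.3, 26.5, 4.93 and 3.28 CPM. Early-stage primary progenitors, the self-renewing cells that come before the neurogenic state, had 195 to 319.8 CPM in the same libraries, above the neurogenic progenitor value in each library. The log2 difference between precursors and neurogenic progenitors was -4.08 (SE 0.26, edgeR quasi-likelihood test, Benjamini-Hochberg adjusted p = 4.89e-13), and -4.98 without the largest cells. Cones of P12 to P21 held 0 UMIs of this row.

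Row 15526 followed the same order. It was at 68.5, 76.0, 78.7, 65.9, 39.0 and 99.1 CPM in neurogenic progenitors, and at 0, 0, 4.76, 2.21, 0 and 4.37 CPM in precursors. Primary progenitors had 80.1 to 116 CPM, and ganglion cells no more than 1.13 CPM. The log2 difference was -4.66 (SE 0.30, edgeR quasi-likelihood test, Benjamini-Hochberg adjusted p = 5.17e-13). A UMI of it was present in 29.3% of neurogenic progenitors and 0.970% of precursors, and the latter share lay close to the 0.873% of ganglion cells and the 0.702% of horizontal cells.

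**Figure D3:**
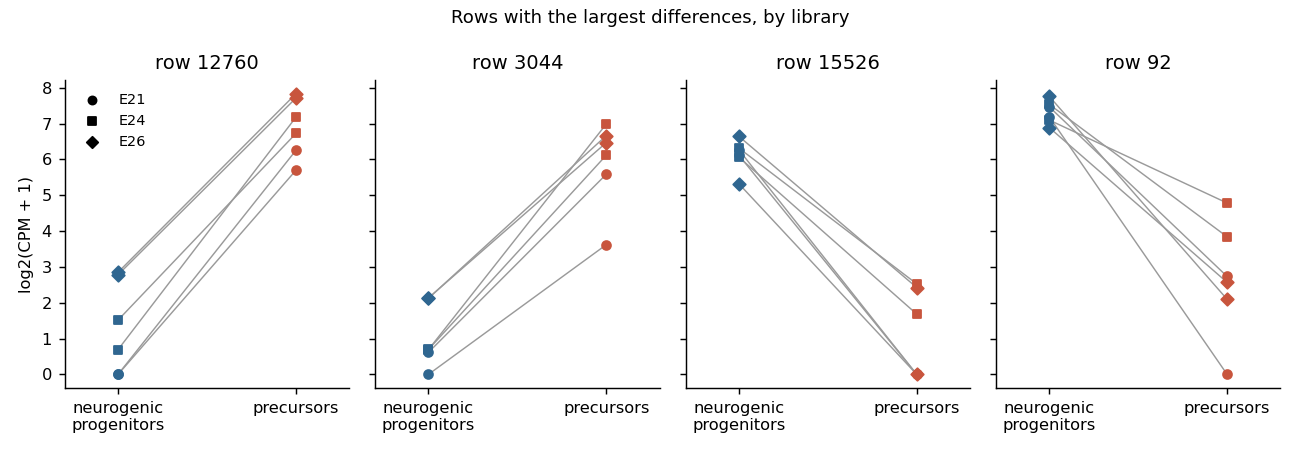
Level of 4 rows in the 2 classes as log2(CPM + 1), with a grey line joining the values of 1 library and the marker shape giving the embryonic day. The 4 rows were chosen among rows in which the 6 precursor values (red) and the 6 neurogenic progenitor values (blue) do not overlap.

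Rows that lead cones, rods, bipolar, horizontal or amacrine cells summed higher in precursors than in neurogenic progenitors. For each type, a list of 50 rows was taken from libraries outside the comparison, as the rows with the largest ratio of the type's CPM to that of the next type. Their CPM were added up over all 50 rows, so that no filter on low counts entered. Cone rows summed to 686 and 738 CPM in the precursors of E21, 904 and 1029 CPM at E24, and 1676 and 1338 CPM at E26. In the neurogenic progenitors they summed to 556 and 457, then 347 and 357, then 391 and 316 CPM. The precursor sum was higher in 6 of 6 libraries without overlap, by a log2 ratio of 1.35 ± 0.73 (SD), and the gap was smallest in both E21 libraries. Ganglion cells of the E21 libraries had 806 and 657 CPM of the same rows, so that the cone sum did not set precursors apart from them at E21, and 437 to 517 CPM at E24 and E26, below the precursors.

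Bipolar cell rows showed the larger ratio. Bipolar cells are interneurons that receive the signal of photoreceptors and arise later in development. Their list summed to 423 to 900.2 CPM in precursors and 118 to 193 CPM in neurogenic progenitors, a log2 ratio of 1.87 ± 0.41 (SD, n = 6, higher in 6 of 6). Ganglion cells had 423 to 556 CPM of these rows, within the range of the precursors. Rod rows differed less, with 558 to 814 CPM against 371 to 545 CPM and a log2 ratio of 0.47 ± 0.21 (SD), again higher in 6 of 6. The rod list comes from 150 cells, and horizontal cells had 534 to 1344 CPM of it.

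Rows of horizontal and amacrine cells differed more between the classes than rod rows did. Horizontal cell rows summed to 576 to 843 CPM in precursors against 212 to 404 CPM in progenitors, a log2 ratio of 1.27 ± 0.47 (SD, higher in 6 of 6), while horizontal cells of the same libraries reached 3271 to 4316 CPM. Ganglion cells had 438 to 611 CPM of them. Amacrine cell rows in turn summed to 363 to 858 CPM against 232 to 338 CPM, a log2 ratio of 1.02 ± 0.55 (SD), higher in 6 of 6 libraries, and in 4 of 6 without the largest cells. Ganglion cells had 675 to 839 CPM of the amacrine rows and horizontal cells 706 to 1068 CPM, so that this sum did not set precursors apart from other neurons. Ganglion cell rows showed no such order: the sums were 293 to 453 CPM in precursors and 241 to 1293 CPM in progenitors, with the precursors higher in 3 of 6. The value of 1293 CPM belongs to E26a, where it was 366 CPM without the largest cells. Ganglion cells themselves summed to 7803 to 10373 CPM. The ganglion cell rows chosen at E18 summed to 510 to 1004 CPM in precursors against 249 to 2352 CPM in progenitors, with the precursors higher in 5 of 6 libraries, and in 6 of 6 without the largest cells. Müller glia rows gave 106 to 129 CPM against 97.9 to 154 CPM, higher in 2 of 6 libraries, and in 5 of 6 without the largest cells.

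Progenitor rows were lower in precursors, by an amount that differed between the lists. The E18 lists were chosen against fewer cell types than the postnatal ones, so that stage and choice of list cannot be told apart. Rows that led the late-stage primary progenitors after birth summed to 896 to 1641 CPM in precursors and 5255 to 9202 CPM in neurogenic progenitors, lower in 6 of 6 libraries by a log2 ratio of -2.64 ± 0.45 (SD). Ganglion and horizontal cells had 306 to 608 CPM of the same rows, below the precursors. Rows that led the primary progenitors of E18 summed to 528 to 836 CPM against 539 to 1226 CPM, with precursors lower in 5 of 6 libraries and in 6 of 6 without the largest cells. Rows that led the E18 neurogenic progenitors were lower in 6 of 6, at 3498 to 6715 CPM against 5012 to 9442 CPM, a log2 ratio of -0.50 ± 0.26 (SD). Primary progenitors had 1831 to 2411 CPM of these rows, ganglion cells 724 to 1213 CPM and horizontal cells 2476 to 4781 CPM. Each of these types lay below the precursors in every library.

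Rows of postnatal precursors and late neurogenic progenitors summed higher in embryonic precursors. Both lists led the next type by little, with a smallest ratio of 1.24 for the precursor list and 1.38 for the late neurogenic list. The list that led postnatal photoreceptor precursors summed to 11626 to 14483 CPM in the embryonic precursors and 9764 to 10597 CPM in the progenitors, higher in 6 of 6 libraries by a log2 ratio of 0.35 ± 0.10 (SD). Early primary progenitors had 10151 to 11568 CPM of it, horizontal cells 9400 to 10981 CPM and ganglion cells 6823 to 7629 CPM. The list of postnatal late-stage neurogenic progenitors was likewise higher in the embryonic precursors, at 4065 to 5441 CPM against 2607 to 3700 CPM. Embryonic precursors thus carried more of the late neurogenic list than the early neurogenic progenitors did, in 6 of 6 libraries.

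Counts of called rows within these lists cover only the rows with enough counts in the 2 classes, and stand beside 18.4% higher and 20.1% lower over all tested rows. Of the cone list 14 rows could be tested, with 8 called higher and 1 lower. For the bipolar list 5 of 7 were called higher and 0 lower, for the rod list 3 of 15 higher and 2 lower, for the horizontal cell list 5 of 8 higher and 1 lower, and for the amacrine list 4 of 8 higher and 3 lower. The ganglion cell list had 2 of 13 called each way, the E18 ganglion list 4 of 17 higher and 1 lower, and the glia list 1 of 3 higher and 2 lower. Called lower were 49 of 49 tested rows of the late primary progenitor list, 17 of 28 of the E18 primary progenitor list (3 higher) and 28 of 48 of the E18 neurogenic list (7 higher). The postnatal precursor list had 16 of 47 called higher and 1 lower, and the late neurogenic list 18 of 38 higher and 9 lower.

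Row by row, the postnatal cell type with the highest level followed the same split only in part. Of the 604 rows at least 2-fold higher in embryonic precursors and with 20 UMIs or more after birth, 16.7% were highest in cones, 17.7% in rods and 14.6% in bipolar cells. Over all 9248 such rows the shares were 6.27%, 14.5% and 8.42%. Other neurons stayed near their share of all rows: horizontal cells 9.77% against 9.65%, amacrine cells 5.79% against 4.93%, ganglion cells 15.9% against 15.3%. Late-stage primary progenitors were the highest type for 0.497% of the rows that rose, against 8.94% of all rows. Of the 742 rows at least 2-fold lower, 50.1% were highest in late-stage primary progenitors and 13.2% in Müller glia, a glial type that keeps much of the progenitor program, and 0.809% in cones. Early-stage neurogenic progenitors after birth were the highest type for 12.3% of these lower rows, against 17.4% of all rows. At E18, where only early primary progenitors, early neurogenic progenitors and ganglion cells were numerous, 66.8% of the rows that rose were highest in ganglion cells against 38.9% of all rows.

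**Figure D4:**
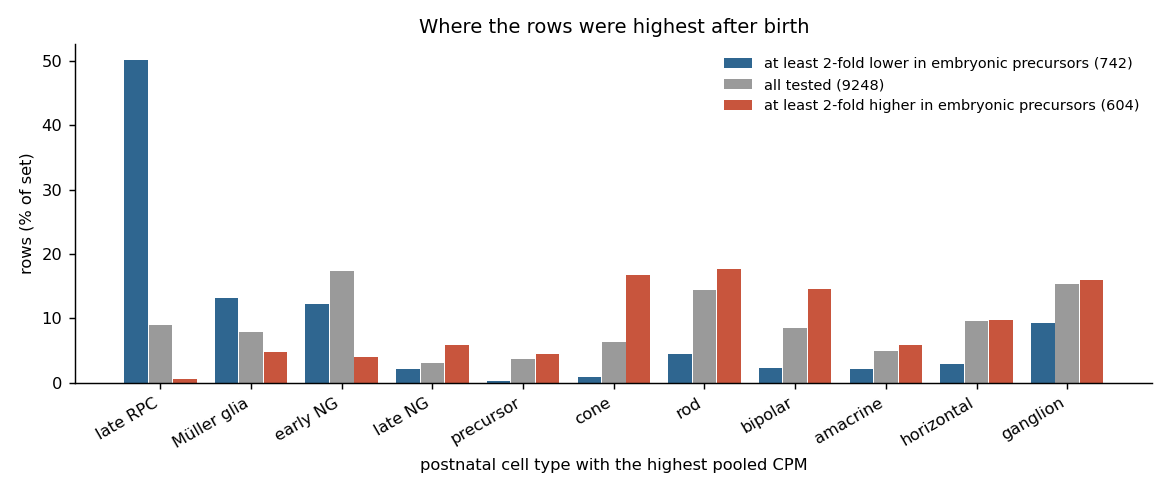
Share of rows, in percent of each set, by the postnatal cell type in which the row had its highest pooled CPM, for rows at least 2-fold lower in embryonic precursors (blue), all tested rows (grey) and rows at least 2-fold higher (red). Late primary progenitors take 50.1% of the lower rows and 0.497% of the higher rows, and cones take 16.7% of the higher rows against 6.27% of all rows.

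Precursors also differed from the other newborn neurons of the same libraries. Against the mean of ganglion and horizontal cells, 5580 of 11738 tested rows differed (47.5%, edgeR quasi-likelihood test, Benjamini-Hochberg adjusted p below 0.05), 2397 higher (20.4%) and 3183 lower (27.1%). This comparison uses the same precursor sums as the one with progenitors. Row 12760 was higher by a log2 difference of 6.60 (SE 0.19) and row 3044 by 5.70 (SE 0.29), so that both were raised against the progenitors and against other neurons. Rows 92 and 15526 had too few counts in the 3 neuron classes to be tested.

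After birth the same step was measured in libraries that share no cells with the embryonic comparison. In 5 libraries of P4, P8 and P12, 1424 photoreceptor precursors and 959 late-stage neurogenic progenitors differed at 922 of 7275 rows (12.7%), 532 higher (7.31%) and 390 lower (5.36%) in the precursors. Leaving out P12b gave 545 rows and leaving out P8a 577 rows, and without the library block, that is, without pairing the classes by library, 244 rows were called. Of the 1387 rows that rose before birth and were tested here, 66.1% were higher in postnatal precursors and 238 were called higher (17.2%), against 49.7% and 5.86% of all 6943 rows tested at both stages. Of the 1383 rows that fell before birth, 32.8% were higher after birth and 167 were called lower (12.1%, against 5.27% of all rows).

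Most of these rows were not called after birth. The 238 rows higher at both stages were 17.2% of the embryonic and 58.5% of the postnatal higher list, and the 167 rows lower at both were 12.1% and 45.6% of the lower lists. Of the rows that rose before birth, 68 were called lower after birth (4.90%), close to the 5.27% of all rows. Of those that fell, 29 were called higher (2.10%, against 5.86% of all rows). Row 12760 was higher at both stages, with a postnatal log2 difference of 3.45 (SE 0.33, edgeR quasi-likelihood test, Benjamini-Hochberg adjusted p = 2.19e-07). The postnatal progenitors carry the late-stage annotation and the embryonic ones the early-stage annotation, so that stage and annotation cannot be told apart here.

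Few rows changed their class difference with age in a way that could be tested. In a fit with a term for the difference per embryonic day, 9 of 9254 rows were called (0.0973%, edgeR quasi-likelihood test, Benjamini-Hochberg), 3 with a rising (0.0324%) and 6 with a falling difference (0.0648%), and 759 rows were at an unadjusted p below 0.05. The count was 3 without E21b, 14 without E26a, 19 without E24a and 109 without E26b, and 1 without the library block. Day by day, 554 rows differed at E21 (5.99%), 1538 at E24 (16.6%) and 2453 at E26 (26.5%). When all 12 sums were thinned to the smallest total of 101995 UMIs, 1643 rows could be tested, of which 190, 206 and 296 differed at the 3 ages and 502 over all 6 libraries.

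Row 14405 differed between the classes at E24 and E26 and not detectably at E21. Its precursor values were 159.9 and 147 CPM at E21, 171 and 192 CPM at E24, and 329 and 271 CPM at E26. In progenitors it went from 212 and 169 CPM through 99.7 and 80.6 CPM to 132 and 51.2 CPM. The E21 precursor values rest on 17 and 26 UMIs, of which single cells gave 9 and 11, and the class difference at E21 was -0.29 on the log2 scale (SE 0.29, adjusted p = 0.689 in edgeR's quasi-likelihood test). Precursors were higher in each of the other 4 libraries. The log2 difference rose by 0.41 per day (SE 0.07, edgeR quasi-likelihood test, Benjamini-Hochberg adjusted p = 0.00238), and the adjusted p was 0.105 without E21b. Cones of P12 to P21 had 1241 to 1493 CPM of this row, and ganglion cells at E18 had 1127 CPM.

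Row 25779 appeared in precursors with age. It was at 9.41 and 11.3 CPM in the precursors of E21 (1 and 2 UMIs), 51.4 and 30.9 CPM at E24, and 105 and 52.4 CPM at E26. In neurogenic progenitors the values were 6.90, 8.0, 6.82, 4.92, 3.95 and 0.839 CPM. The classes lay side by side at E21 and apart at E24 and E26, and the difference rose by 0.91 per day on the log2 scale (SE 0.16, edgeR quasi-likelihood test, Benjamini-Hochberg adjusted p = 0.00429). That call was lost without E21b (adjusted p = 0.126) and without E26a (adjusted p = 0.0946). In cones of P12 to P21 the row was at 93.1 to 158 CPM.

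Row 9073 was highest in the E21 precursors. It was at 1223 and 779 CPM in the precursors of the 2 E21 libraries, and at 14.3, 22.1, 23.4 and 20.8 CPM in those of E24 and E26. At least 1 UMI was found in 17 of 18 and 16 of 22 precursors at E21, at no more than 23 UMIs per cell, so that no single cell carried the level. Neurogenic progenitors went from 79.6 and 81.7 CPM at E21 to 10.9 to 31.6 CPM later. Horizontal cells likewise had 111 and 157 CPM at E21 and 8.83 to 17.2 CPM later. Ganglion cells had 26.5 and 28.3 CPM at E21 and 6.97 to 9.53 CPM later, whereas primary progenitors stayed at 17.4 to 25.1 CPM. The class difference fell by 0.76 per day on the log2 scale (SE 0.11, edgeR quasi-likelihood test, Benjamini-Hochberg adjusted p = 0.000377), and the row was called without each library in turn. It was not called without the library block (adjusted p = 0.182).

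Row 29330 narrowed more slowly, from both sides. Precursors were at 179 and 203 CPM at E21, 150.3 and 64.1 CPM at E24 and 98.7 and 79.7 CPM at E26, and neurogenic progenitors at 25.5 and 34.9, then 63.8 and 44.9, then 87.5 and 47.0 CPM. The difference fell by 0.44 per day on the log2 scale (SE 0.08, edgeR quasi-likelihood test, Benjamini-Hochberg adjusted p = 0.0031), with the call lost without E21a (adjusted p = 0.0586) or E21b (adjusted p = 0.204). After birth the order was turned in the fit: late-stage neurogenic progenitors were higher by a log2 difference of -1.24 for precursors minus progenitors (SE 0.21, edgeR quasi-likelihood test, adjusted p = 0.000205). P8b was the exception, with precursors at 81.0 CPM and progenitors at 47.4 CPM, the latter from 4 UMIs. Without the library block none of the 4 rows was called (adjusted p = 0.182 to 0.198).

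**Figure D5:**
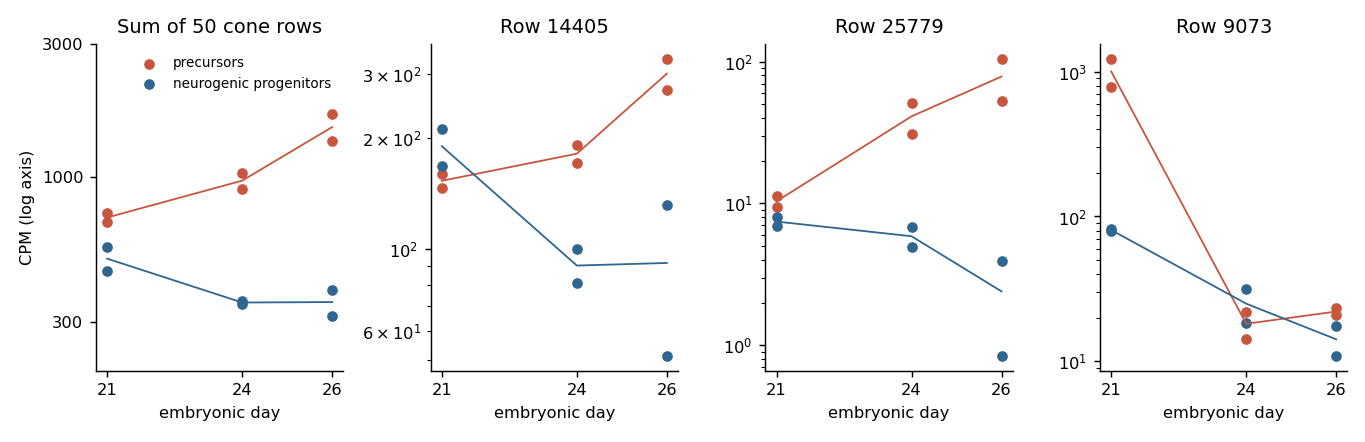
CPM (log axis) against embryonic day for the summed cone list and for rows 14405, 25779 and 9073, in precursors (red) and neurogenic progenitors (blue). Each point is 1 library and lines join the means of the 2 libraries of a day. The cone list and the first 2 rows draw apart with age, and row 9073 is highest in the 2 precursor sums of E21.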

How the data were processed

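Whole 13LGS retinas were profiled with 10x 3′ v3.1 libraries. The authors deposited UMI counts per row and cell, whole numbers that are not normalized, made with CellRanger 3.1.0 on HiC_Itri_2 and Seurat 4.0.4 per the study's methods. Cell filters, doublet removal and depth equalisation were "not given in the sources used here". Columns of the deposited embedding were not used. Libraries were told apart by the suffix of the cell names; a and b only name suffixes. P1 had 2 suffixes for 1 sample and was not used. Of 3000 held-out cells, 85.3% fell nearest their own annotated type (11.8% after shuffling), which checks the order of the cell table.

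Counts were summed per library and class with at least 10 cells and tested with edgeR 4.0.16 in R 4.3.3 (filterByExpr, trimmed-mean scaling, quasi-likelihood test, Benjamini-Hochberg over all tested rows, threshold 0.05). The study tested single cells. The library was the block, because both classes came from the same libraries. A standard error is the log2 difference divided by the square root of F. CPM of single rows in the 2 embryonic classes are UMIs per 1e6 UMIs of the tested rows, after trimmed-mean scaling. List sums, and CPM of single rows in other cell types and libraries, are UMIs per 1e6 UMIs of the unscaled sum. The 2 scales differ somewhat, and CPM were compared within a row or list only. The 4 rows named first are the 2 largest rises and 2 largest falls among called rows with at least 50 CPM, 6 of 6 libraries in 1 direction and no overlap; the next 4 have the largest called changes with age at 20 CPM or more. Lists of 50 rows required 20 UMIs and 20 CPM in a type of at least 50 cells; the lists of postnatal precursors, late progenitors, E18 ganglion cells and E18 neurogenic progenitors were added later. Members, lists and rules were chosen with earlier results of these data known. Intervals (95% Wilson) cover counting error only. Fits were tested on simulated data. DESeq2, limma-voom, other scaling, filters and left-out libraries were the alternatives.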

Additional observations from a re-analysis of the deposited data

Results flagged for a closer look

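Dixon's test over 6 libraries was applied to 48 sets of values (levels of the named rows, list sums, shares and depths of the 2 classes), and chance alone sets apart about 1 in 20 such sets. It set apart the neurogenic progenitors of E26a at the 50 ganglion cell rows chosen after birth, with 1293 CPM against 241 to 393 CPM in the other 5 libraries. It set apart the same cells at the ganglion cell rows chosen at E18, with 2352 CPM against 249 to 615 CPM. Without cells above 2 times the median UMIs these sums were 366 and 553 CPM. The part of doublets in this was not tested.

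The difference between precursors and progenitors itself changed between embryonic days, by the test of the class by day term in edgeR, for row 25779 (0.91 per day on the log2 scale), row 14405 (0.41), row 9073 (-0.76) and row 29330 (-0.44). Row 9073 was the one of these 4 that was called with each library left out in turn, and its class difference was called at E21 only.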

How the results depend on the processing

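The 3559 rows that separated precursors from progenitors became 2683 to 4203 over the other tools, scalings, filters and left-out libraries, 2916 with no library block (no pairing by library) and 2773 with DESeq2. They became 1347 where a 2-fold change was also required, and 502 with all 12 sums thinned to equal totals, an alternative chosen after seeing the data. None of these rows was called in the opposite direction under the 15 settings compared row by row. The 9 rows with an age term became 18 with relative log expression scaling, 36 with no filter, 28 without the largest cells, 1 with no library block and 3 to 109 with a library left out. The 922 postnatal rows became 494 with DESeq2, 244 with no library block and 545 to 1129 with a library left out. For the comparison with ganglion and horizontal cells the range was 4746 to 6642. The log2 ratio of UMIs per cell was -0.67 to -0.58 with a library left out, where the exact sign-flip permutation test cannot go below p = 0.0625. With 25 rows per list no row of the rod, amacrine and glia lists could be tested. Of the cone list 5 rows could be tested, with 2 called higher and 1 lower. Their median log2 difference was -0.53, against 0.81 for the 14 rows tested with 50 per list. The percent called higher was then 100 for bipolar (1 row tested) and horizontal cell rows (3 tested), 0 for E18 primary progenitor rows (10 tested) and 17.4 for postnatal precursor rows (23 tested), and the percent called lower was 0 for horizontal cell and 80 for E18 primary progenitor rows. The fitted log2 difference of row 12760 ran from 5.47 to 7.89 and that of row 92 from -4.98 to -3.67. The 18 and 22 precursors of E21 limit what can be said of that day.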
